A study of Mus musculus with 12 samples.

Results

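Skeletal muscle genes were measured by 14 probes on Illumina mouse WG-6 v2 arrays of recurrent tumors, primary tumors and SCC-7 cells. They were chosen by symbol in the platform annotation: 10 genes of skeletal muscle, Acta1, Ckm, Myh2, Myl1, Tnnt3, Tnnc2, Actn3, Mb, Pvalb and the kinase gene Srpk3. The annotation names no probe for Myh2, so that 9 of the 10 genes were measured, and 11 of the 14 probes were kept among 18454 of 45135 probes that were brighter than the negative controls on at least 2 of 12 arrays. Each of the 9 genes had a kept probe, as did 10346 named genes in all. The study asked which genes differ between primary oral squamous cell carcinomas and their local recurrences. Recurrent tumors (n = 5) were local recurrences in the floor of the mouth of BALB/c-nu mice that grew after microsurgical removal of the primary tumor, and primary tumors (n = 5) were those of the same animals, grown from injected SCC-7 cells. The SCC-7 group (n = 2) comprised replicates of the cultured murine squamous cell carcinoma line itself, with no other treatment. All tumors thus share 1 cell line and an immunodeficient host that lacks a working thymus, and no array of normal mouth floor or of muscle was analysed here. Ages were not given in the labels. The labels do not say that the SCC-7 replicates came from separate cultures, so spread between cultures may be missing from comparisons with them. P-values against them come from 1 estimate of spread over all 3 groups, to which the tumors contribute most.

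Skeletal muscle contracts when myosin filaments pull on actin filaments in the sarcomere, under the control of troponin, which binds calcium and moves tropomyosin along the actin filament. Fast fibres carry their own isoforms of these proteins, with parvalbumin as a calcium buffer and creatine kinase and myoglobin to supply energy and oxygen. The tongue and the floor of the mouth hold much striated muscle. SRPK3 phosphorylates serine- and arginine-rich splicing factors, is restricted largely to striated muscle, and in mice is driven there by the transcription factor MEF2C.

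The 250 bases before a transcript start were available from RefSeq (mouse build GRCm38.p6) for 8 of the 10 genes, with 3 starts for Mb and 2 for Pvalb, which were counted together. Tnnt3 and Actn3 had no entry. Motifs that bind muscle regulators were searched on both strands: the E-box CANNTG of MyoD-like factors, its CAGCTG form, the MCAT motif CATTCC of TEAD factors, the MEF2 site and the CArG box of serum response factor. 3 promoters are shown because they hold the rarer motifs, and because the level of Srpk3 ran apart from that of Acta1 and other muscle genes below. Capitals mark matches to the E-box form CAGCTG, to the MCAT motif, to the MEF2 site and to the CArG box, and the last base of each run lies next to the transcript start. For Acta1 and Pvalb this is the first base of the annotated gene, whereas for Srpk3 it lies 1797 bases inside it.
Acta1, chr8:123894776-123895025, minus strand: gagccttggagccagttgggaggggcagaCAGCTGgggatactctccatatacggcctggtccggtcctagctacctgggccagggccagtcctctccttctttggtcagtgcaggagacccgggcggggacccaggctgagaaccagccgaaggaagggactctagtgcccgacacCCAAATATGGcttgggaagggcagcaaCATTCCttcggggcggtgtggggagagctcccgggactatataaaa
Srpk3, chrX:73774155-73774404, plus strand: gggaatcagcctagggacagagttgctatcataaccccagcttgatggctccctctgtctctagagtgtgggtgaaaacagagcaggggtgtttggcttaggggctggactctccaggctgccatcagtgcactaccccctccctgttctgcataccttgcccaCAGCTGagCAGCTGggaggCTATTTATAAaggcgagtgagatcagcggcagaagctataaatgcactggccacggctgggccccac
Pvalb, chr15:78206401-78206650, minus strand: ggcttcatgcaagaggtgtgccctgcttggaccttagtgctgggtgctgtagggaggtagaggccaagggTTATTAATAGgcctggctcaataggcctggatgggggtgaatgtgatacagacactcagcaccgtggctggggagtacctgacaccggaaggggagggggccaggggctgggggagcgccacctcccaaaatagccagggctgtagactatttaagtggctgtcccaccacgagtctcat
The Acta1 window held a CAGCTG, a CArG box 73 bases and a CATTCC 46 bases before the start. The Srpk3 window held CAGCTG at 86 and 78 bases and a MEF2 site at 67 bases before the start, and the Pvalb window a MEF2 site at 180 bases. Of the 8 genes, 5 held CAGCTG, 2 CATTCC, 2 a MEF2 site and 1 a CArG box, while 13.0%, 12.6%, 2.92% and 1.47% of all 32851 RefSeq promoters of this length held them. Those shares are per window, so Mb and Pvalb, with several windows each, had more chances of a match. In Mb, CAGCTG lay only in 2 overlapping windows, whose starts are 27941 and 27881 bases inside the annotated gene. The plain E-box, which includes the CAGCTG form, was in 7 of the 8 genes and in 66.2% of all promoters. These matches describe the letters only.

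Levels are given as log2 of the background-corrected and quantile normalized intensity, for each gene from its kept probe with the highest mean. A level is called not above background where at least 1 in 100 of the negative controls were as bright. Between 13711 and 17083 probes per array were detected, and the small number of arrays limits the precision. Some arrays stood apart. In primary tumor 3, transcripts of lymphocytes were high. The mean log2 level of 4 kept T cell genes of 6 listed was 10.23 there and 4.89 to 6.06 in the other tumors. That of 2 kept B cell genes of 6 listed was 12.28 there and 5.00 to 7.999 in the others. These immune lists were chosen after the values were seen. In pair 1, recurrence 1 had the lowest mean of the salivary gland genes among the tumors, at 5.54, and primary tumor 1 the highest, at 13.79, with 9 of 9 measured genes highest there. Whether the labels of pair 1 are in order cannot be told from the files, so that the direction of every difference within this pair is uncertain. Deviations of both tumors of an animal from their group means correlated at -0.37 in pair 1 and at 0.03 to 0.36 in the other pairs, across probes.

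Acta1 encodes skeletal muscle alpha-actin, the thin filament protein. Its log2 level was 4.89, 8.20, 5.31, 9.87 and 10.86 in recurrent tumors 1 to 5, against 8.39, 4.89, 10.64, 7.11 and 5.83 in primary tumors 1 to 5. SCC-7 cells had 5.79 and 5.14. Recurrences 4 and 5 and primary tumor 3 were the highest, both tumor groups spanned nearly the same range, and recurrence 1, primary tumor 2 and 1 SCC-7 array were not above background. Myl1, a fast-fibre essential myosin light chain, lay at 5.69, 6.87, 5.48, 9.68 and 10.48 in recurrent tumors 1 to 5, against 8.82, 4.64, 11.52, 6.97 and 4.45 in primary tumors 1 to 5. It was not above background in the SCC-7 arrays (5.35 and 5.30) or in primary tumors 2 and 5. Of 2 further Myl1 probes, 1 was kept and moved the same way in all 5 pairs.

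Tnnc2, the calcium-binding troponin C of fast fibres, had log2 levels of 4.55, 5.90, 4.82, 8.18 and 9.497 in recurrent tumors 1 to 5, against 6.88, 4.26, 9.24, 5.72 and 4.30 in primary tumors 1 to 5. It was above background in 3 recurrent and 3 primary tumors and in neither SCC-7 array (4.42 and 4.69). The order of the 6 highest tumors, which ran from recurrence 5 over primary tumor 3, recurrence 4, primary tumor 1 and recurrence 2 to primary tumor 4, was the same as for Acta1. Pvalb, the parvalbumin gene, had levels of 4.85, 5.35, 4.87, 7.86 and 7.75 in recurrent tumors 1 to 5, against 7.03, 4.41, 9.25, 5.00 and 4.58 in primary tumors 1 to 5. SCC-7 cells were at 4.44 and 4.61, not above background. Recurrences 4 and 5 and primary tumors 1 and 3 stood clear of the others.

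Ckm, the muscle creatine kinase, and Mb, myoglobin, were dimmer. Ckm ranged between 4.30 and 6.47 with a median of 5.05 in recurrent tumors, and between 4.45 and 6.79 with a median of 4.73 in primary tumors, and Mb between 4.91 and 8.01 with a median of 5.35, against 4.61 and 7.30 with a median of 5.23. Both were above background in recurrences 4 and 5 and in primary tumors 1 and 3, and Mb also in recurrence 2. The probes of both were not above background in SCC-7 cells. Actn3, the alpha-actinin of fast-fibre Z-discs, was above background only in recurrence 5 (6.37) and in primary tumors 3 and 4 (5.71 and 5.45), by the probe kept of 3.

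Tnnt3, the tropomyosin-binding troponin T of fast fibres, differed from these genes. Its levels were 7.19, 6.74, 5.90, 6.12 and 7.16 in recurrent tumors 1 to 5, against 5.96, 6.66, 7.19, 5.53 and 4.51 in primary tumors 1 to 5. The SCC-7 cells, at 6.13 and 5.81, were above background and within the range of the tumors. It was the single gene of the 9 detected in both SCC-7 arrays.

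Srpk3 had a profile of its own. Its log2 levels were 5.42, 5.29, 5.20, 4.98 and 4.87 in recurrent tumors 1 to 5, against 6.97, 6.46, 10.00, 5.79 and 5.04 in primary tumors 1 to 5, and 4.47 and 4.47 in SCC-7 cells. The recurrent tumors lay close together (SD 0.22, n = 5), whereas the primary tumors were spread (SD 1.90, n = 5) by primary tumor 3, whose deposited intensity was 1135. 4 primary tumors were above every recurrent tumor, and primary tumor 5 was within their range. Only recurrences 1 and 2 and primary tumors 1 to 4 were above background. The recurrences that were brightest in Acta1, 4 and 5, had the lowest Srpk3 values of the 10 tumors, both not above background.

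**Figure D1:**
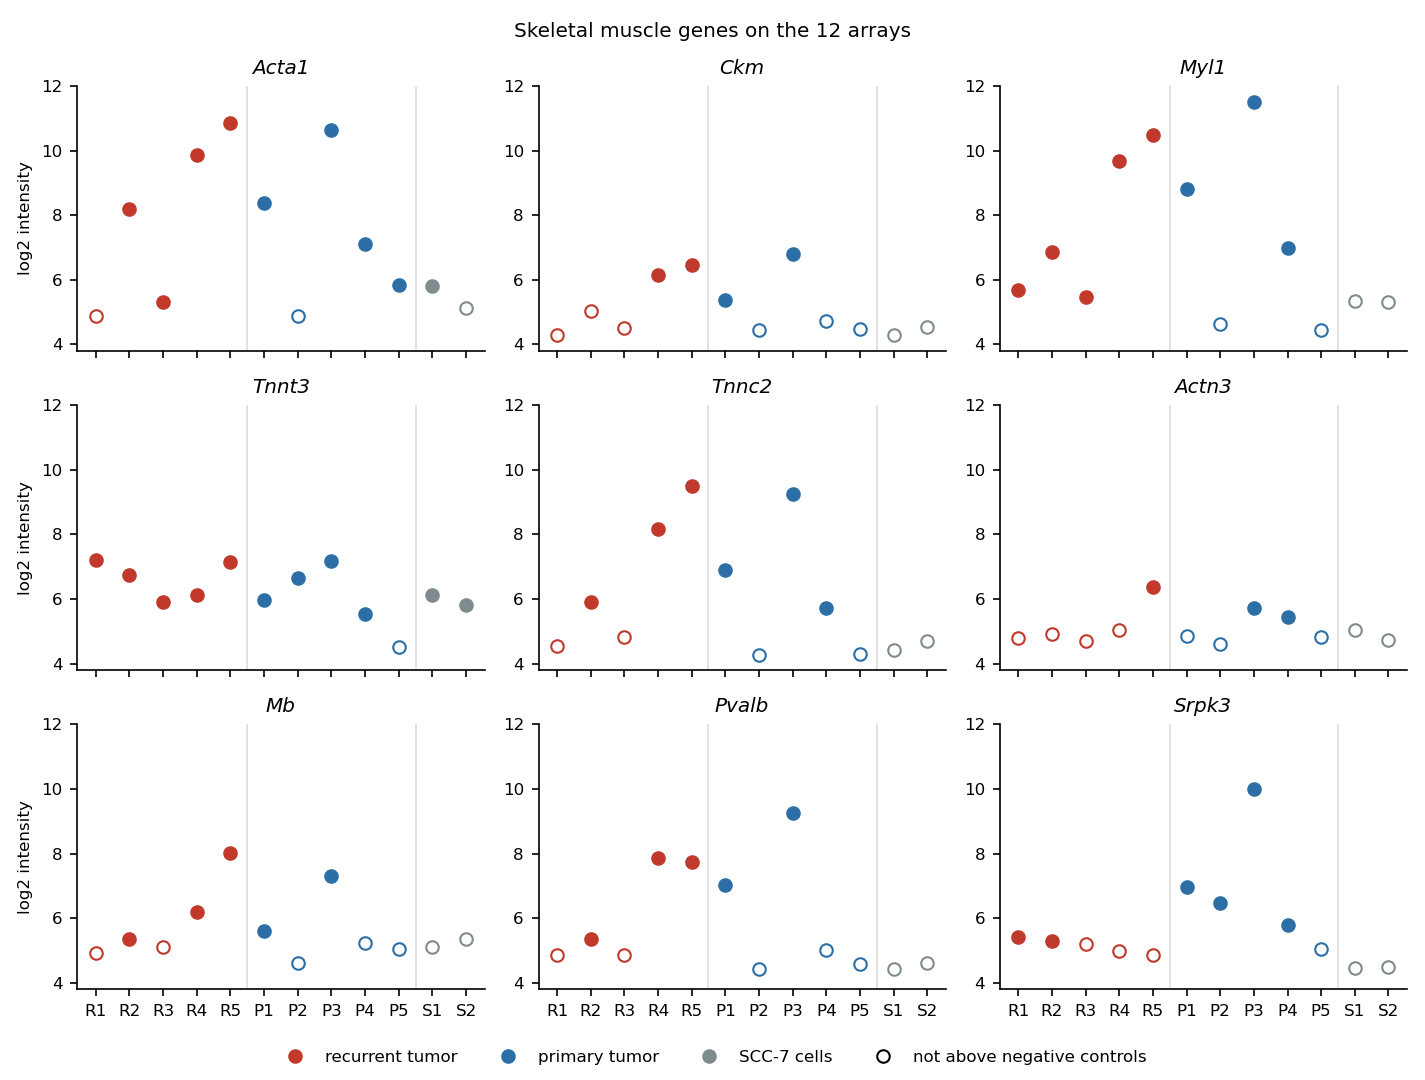
Log2 normalized intensity (vertical axis) of 9 skeletal muscle genes on 12 arrays (R1 to R5 recurrent tumors, P1 to P5 primary tumors of the same animals, S1 and S2 SCC-7 cells), 1 point per array, open where the level was at background. Acta1, Myl1 and Tnnc2 were high in R4, R5 and P3, and Srpk3 was high in P3, at 10.00, and at most 5.42 in recurrent tumors.

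How far the tumors differed among themselves was compared with the other probes. The SD over 10 tumors was 2.52 for Myl1, a 134-fold range, and 2.34 for Acta1, a 63.0-fold range, while the median over all kept probes was 0.38 and the 95th percentile 1.13. Only 0.504% and 0.677% of kept probes had an SD as large as that of Myl1 and Acta1. Tnnc2 (2.02), Pvalb (1.72) and Srpk3 (1.56) also exceeded the 95th percentile, whereas Mb (1.11), Ckm (0.92), Tnnt3 (0.87) and Actn3 (0.55) did not. With primary tumor 3 left out, which was decided once the values were known, the SD was 2.21 for Acta1, 2.20 for Myl1, 1.84 for Tnnc2 and 1.39 for Pvalb, with a 95th percentile of 0.90, but 0.72 for Srpk3. The wide range of Srpk3 thus rests on that array.

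The highest tumor was primary tumor 3 for 4 of the 9 genes (Ckm, Myl1, Pvalb and Srpk3), recurrence 5 for 4 (Acta1, Tnnc2, Actn3 and Mb) and recurrence 1 for Tnnt3. Acta1, Ckm, Myl1, Tnnc2, Mb and Pvalb had the same 3 highest tumors, recurrences 4 and 5 and primary tumor 3, as did 8 of 30 other muscle genes and 1.14% of all kept probes. Since the RNA is from bulk tissue, fewer cells of a type and less RNA per cell cannot be told apart.

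Recurrent tumors were then compared with primary tumors of the same animals. The paired limma fit called none of the 9 genes and 0 of all 18454 probes (0%) at an adjusted p under 0.05. At an unadjusted p under 0.05, 458 probes were higher and 144 lower, and the smallest adjusted p was 0.933. Of the 9 genes, 8 had positive log2 fold changes, of 0.08 for Actn3 and for Pvalb to 0.66 for Tnnt3, and Srpk3 a negative one. Their median was 0.35, against 0.03 over all kept probes. The spread between pairs was larger than these values: Acta1 had 0.46 with a standard error of 1.58, Myl1 0.36 with 1.68 and Tnnc2 0.51 with 1.34 (adjusted p = 0.976, 0.982 and 0.967 from limma). The sign for Pvalb turned without background correction, with an offset of 50 and with the authors' normalized intensities.

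Within animals most of the muscle genes moved in the same direction. The log2 ratio of recurrent over primary tumor for Acta1 was -3.51 in pair 1, 3.31 in pair 2, -5.32 in pair 3, 2.76 in pair 4 and 5.04 in pair 5. Tnnc2 had -2.33, 1.64, -4.42, 2.46 and 5.19, and Pvalb -2.18, 0.93, -4.37, 2.85 and 3.17. Pairs 1 and 3 thus had negative and pairs 2, 4 and 5 positive ratios in each of these genes, and likewise in Ckm, Mb and Myl1. A further kept Mb probe, above background only in primary tumor 3 and recurrence 5, instead had -0.34 in pair 4. Tnnt3 differed in pair 1 (1.23) and Actn3 in pair 4 (-0.41). Ratios that involve a level not above background are no exact sizes. By the count of at least 2-fold differences in at least 3 of 5 pairs, Acta1, Myl1 and Tnnc2 were among the 184 higher probes (0.997%) and Srpk3 among the 63 lower ones (0.341%).

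**Figure D2:**
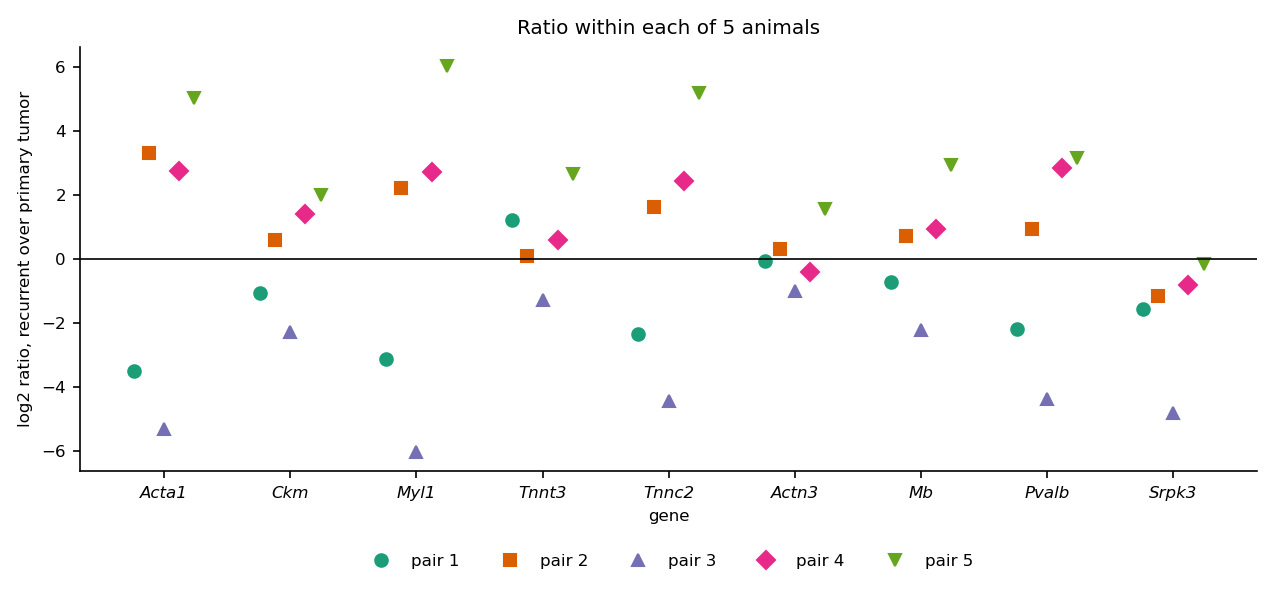
Log2 ratio of recurrent over primary tumor (vertical axis) for 9 genes (horizontal axis), 1 symbol per animal. Ratios of Acta1 ran between -5.32 (pair 3) and 5.04 (pair 5), and those of Srpk3 were below 0 in all 5 pairs.

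The signs of the muscle genes other than Tnnt3 and Srpk3 depended on single pairs. Without pair 5 the fold changes of Acta1, Ckm, Myl1, Tnnc2, Actn3, Mb and Pvalb turned negative, for example to -0.69 for Acta1 and -1.05 for Myl1. Without pair 1 they were 1.45 for Acta1, 1.24 for Myl1 and 1.22 for Tnnc2, and without pair 3 they were 1.90, 1.96 and 1.74. None passed the adjusted p in either case (0.909 or higher without pair 1, 0.999 without pair 3).

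Srpk3 was lower after recurrence in 5 of 5 pairs, with log2 ratios of -1.55, -1.16, -4.80, -0.81 and -0.16 in pairs 1 to 5. In the paired fit this came to -1.70 on the log2 scale with a standard error of 0.64, 3.24-fold lower in recurrent tumors, with an unadjusted p of 0.0338 and an adjusted p of 0.933 from limma. The adjusted p was 0.882 to 1 over the alternatives. The two-sided exact sign-flip test gave p = 0.0625, the smallest that 5 pairs allow. The log2 fold change was -0.92 without pair 3 and -1.73 without pair 1, whose label order cannot be told from the files. In pair 5 both tumors were not above background.

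To ask whether the kinase gene moved apart from the other muscle genes, the median ratio of the other 8 genes was subtracted in each pair. The difference was 0.07, -1.995, -1.47, -2.74 and -3.22 in pairs 1 to 5, with a mean of -1.87 (SD 1.28, n = 5). It was below 0 in 4 of 5 pairs, with a two-sided exact sign-flip p of 0.125, and its mean was -2.36 without pair 1 and -1.97 without pair 3. In pair 2 all 8 other genes had positive ratios while Srpk3 had a negative one, as in pair 5, and in pair 4 it was 7 of 8. In pairs 1 and 3 the others were negative in 7 and 8 of 8 genes, like Srpk3. Compared without pairing, over tumors, the difference was -2.08 with an exact permutation p of 0.0159, two-sided. That test treats the 2 tumors of an animal as independent, so the paired sign-flip p of 0.125 is the one for this design.

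Genes with the profile most like these were sought among all kept probes, as the smallest root mean square difference of log2 levels over 12 arrays, each profile centred on its mean. For the 9 genes together these were Fhl1, Actn2, Tcap, Pgam2 and Csrp3 (0.37, 0.38, 0.41, 0.50 and 0.52). Actn2 and Tcap encode Z-disc proteins, Pgam2 the muscle phosphoglycerate mutase, and Fhl1 and Csrp3 LIM proteins of striated muscle. Fhl1 had 5.06, 6.80, 5.22, 7.12 and 8.12 in recurrent tumors 1 to 5, against 6.66, 4.99, 8.56, 6.001 and 4.42 in primary tumors 1 to 5. Leaving out primary tumor 3 gave the same 5 genes.

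For Srpk3 the most similar profiles were those of Siglech, Asb2, St6galnac3, Vtn and Adam23 (0.45 to 0.49). Siglech is a surface lectin of plasmacytoid dendritic cells, Asb2 encodes a subunit of an E3 ubiquitin ligase found in muscle and in blood cells, and Vtn vitronectin. Siglech had 5.33, 4.89, 5.52, 4.74 and 4.71 in recurrent tumors 1 to 5, against 6.11, 5.52, 9.36, 4.55 and 4.71 in primary tumors 1 to 5. The distance of Srpk3 to the muscle genes' mean profile was 1.24, larger than for any of the other 8 (0.43 to 1.11), although that mean includes each gene. Without primary tumor 3, only Adam23 of the 5 genes remained, and the nearest were Ehd3 and Galnt18 (0.30 and 0.33).

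**Figure D3:**
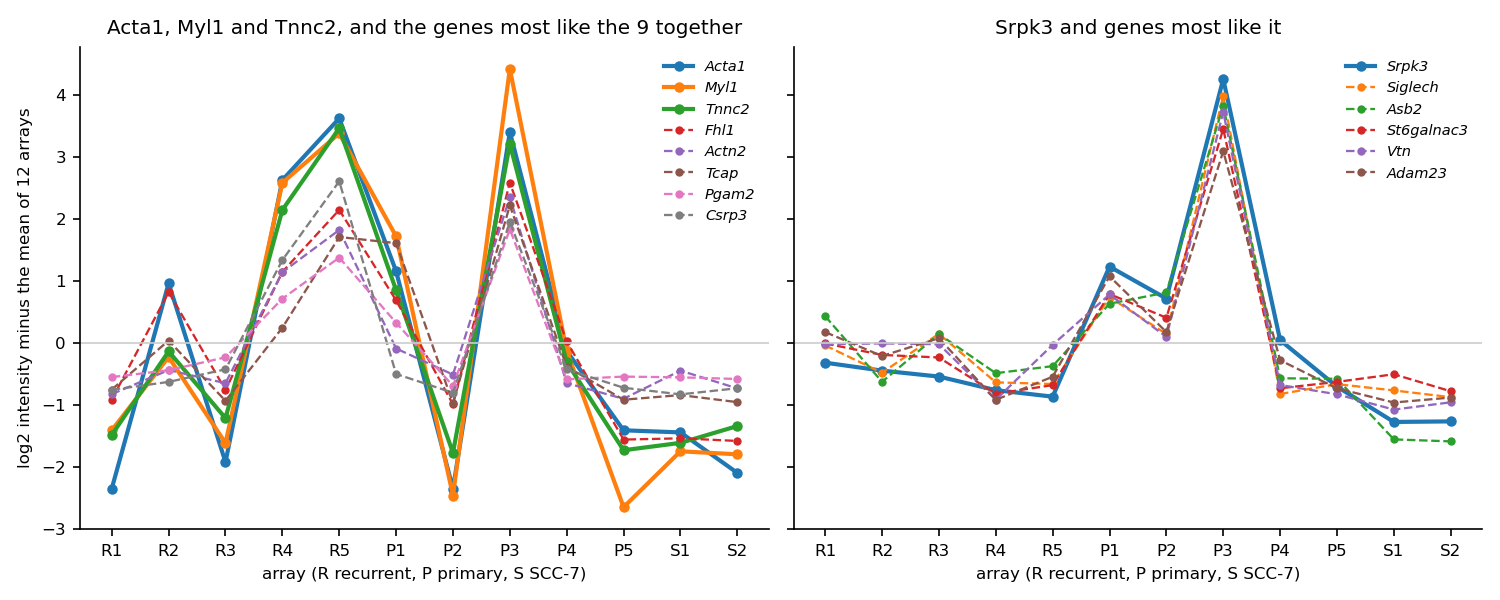
Log2 intensity minus the mean of 12 arrays (vertical axis) on the 12 arrays (R recurrent, P primary, S SCC-7), with Acta1, Myl1, Tnnc2 and the 5 genes most like the 9 muscle genes together on the left, and Srpk3 with the 5 genes most like it on the right. The genes on the left had R4, R5 and P3 as their highest arrays, except Tcap, which was higher in P1 (6.92) than in R4 (5.55), and the genes on the right were highest in P3.

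Transcripts of other cell types moved with primary tumor 3. Cd3d, Cd3e, Cd3g and Cd2, genes of T cells, had 10.66, 9.54, 10.40 and 10.31 there and at most 6.63 in any other tumor, and Cd79b and Blk, which B cells express, 13.34 and 11.22. Of 8 listed genes that plasmacytoid dendritic cells express, 6 were kept and 4 were highest in primary tumor 3. The list mean was 9.69 there and 7.40 to 8.09 in the other tumors. Among the 4, Ly6d had 10.46 there and at most 6.31 in the other tumors, and was detected on only 2 arrays. Bst2 was instead highest of the tumors in recurrence 3 (9.60), with 9.39 and 9.63 in SCC-7 cells. Pacsin1 had 5.33 in primary tumor 3 and was highest in primary tumor 4 (5.65). The macrophage list was lowest in primary tumor 3, with a mean of 10.27 against 10.90 to 11.89 in the other tumors. The smooth muscle list was highest there, at 8.97, but close to primary tumor 1 at 8.78, with 7.36 to 7.87 in the others. All 8 of its genes have probes and 5 were kept. Of these, 4 were highest in primary tumor 3, whereas Actg2 was the lowest of the tumors there, at 6.52. The part of these cell types in the level of Srpk3 in primary tumor 3 was not tested. In recurrences 4 and 5 the T cell list lay at 5.36 and 6.06 and the B cell list at 5.00 and 6.41. The T cell mean of recurrence 5 was the highest outside primary tumor 3. In primary tumor 2, where Srpk3 was at 6.46, the T and B cell lists lay at 5.32 and 6.11.

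Salivary gland and fat transcripts did not have the tumor order of the muscle genes. The salivary gland list mean clearly shared the direction of Acta1 in pairs 1, 2, 4 and 5, and the adipocyte list mean in pairs 1 to 3. The salivary gland list had 5.54, 12.09, 12.10, 10.38 and 11.19 in recurrent tumors 1 to 5, against 13.79, 10.29, 12.12, 8.39 and 7.625 in primary tumors 1 to 5. In pair 3 its means were nearly equal, and its genes were split. Amy1 (5.83 against 11.63) and Smr3a (10.38 against 14.13) were lower in the recurrent tumor. Prol1, Dcpp1, Bhlha15, Aqp5, Pip, Cldn10 and Klk1 were higher there. The adipocyte list was highest in recurrence 2 and primary tumor 1, at 7.19 and 7.60. Its differences were small in pair 4 (4.81 in the recurrent and 4.62 in the primary tumor) and in pair 5 (4.74 and 4.71). In these pairs Adipoq, Cidec and Car3 were not above background in either tumor, and Lep was lower in the recurrent tumor. Of the 8 genes of the cardiac list, 7 have probes and 2 were kept. The 2 had a mean of 7.36 in primary tumor 3, where they went opposite ways. Myl4 was highest of the tumors there, at 10.34, and Nppb lowest, at 4.38 and not above background. The part of these tissues in the muscle signal was not tested.

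**Figure D4:**
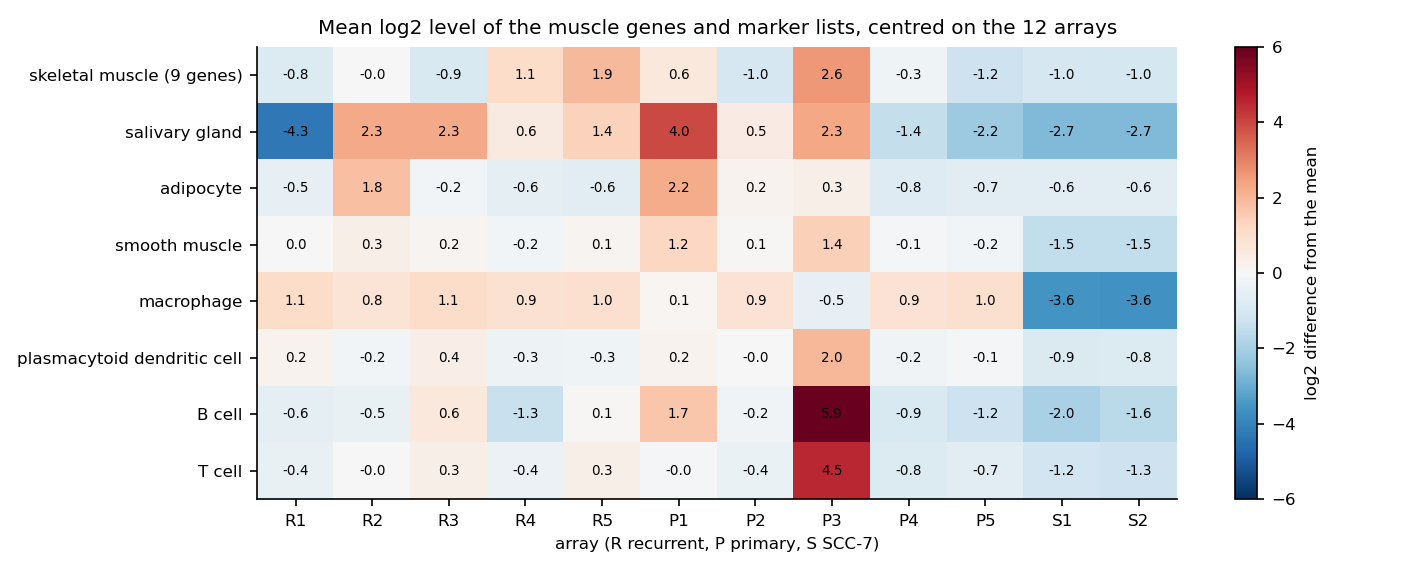
Mean log2 level of the 9 skeletal muscle genes and of marker lists of other cell types, each centred on its mean over the 12 arrays (R recurrent, P primary, S SCC-7), in rows, with arrays in columns and the log2 difference printed in each cell. T and B cell lists were highest in P3, the salivary gland list in P1, and the muscle genes in P3, R5 and R4.

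Tumors were finally compared with the SCC-7 cells they were grown from. A call required a difference of at least 2-fold and an adjusted p under 0.05. None of the 9 genes was called in recurrent or in primary tumors, while 6.86% of kept probes were called higher and 5.02% lower in recurrent tumors, and 6.64% higher and 5.74% lower in primary tumors. The median log2 fold change of the 9 genes was 0.87 for recurrent tumors over SCC-7, against -0.11 over all kept probes, and 1.53 for primary tumors, against -0.15. Without primary tumor 3 the median for primary tumors was 0.73. SCC-7 cells were not above background in 7 of the 9 genes, so that these medians rest on levels at background. With median scaling, 1490 probes were called higher and 311 lower in recurrent tumors (1266 and 927 with quantile normalization), and 1362 higher and 367 lower in primary tumors (1225 and 1059), and the medians of all kept probes moved to 0.13 and 0.08.

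Myl1, which was not above background in SCC-7 cells, was at least 3.90-fold higher in recurrent tumors and at least 3.04-fold in primary tumors, and Tnnc2 at least 1.88-fold and 1.32-fold. These bounds set the group mean against the lowest signal of detected probes on the SCC-7 arrays, and they rest on single tumors. Without recurrence 5 those of recurrent tumors were 2.39-fold for Myl1 and 1.14-fold for Tnnc2. Without primary tumor 3 that of Myl1 in primary tumors was 1.46-fold, and the mean of Tnnc2 was below the bound. The adjusted p was 0.412 and 0.469 for Myl1 and 0.365 and 0.478 for Tnnc2. Acta1, detected in 1 SCC-7 array, had log2 fold changes of 2.36 and 1.90 (standard error 1.72 each, adjusted p = 0.367 and 0.449) in recurrent and primary tumors, which were 1.60 without recurrence 5 and 1.09 without primary tumor 3. Tnnt3 had 0.65 and -0.0044 (adjusted p = 0.483 and 0.997), and its sign for primary tumors turned under 4 other processings of the arrays.

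Srpk3 was not above background in SCC-7 cells. The mean of recurrent tumors, 5.15, was below the lowest detected signal of those arrays (5.68), so that no fold is given (adjusted p = 0.648). Primary tumors, with a mean of 6.85, exceeded SCC-7 cells at least 2.25-fold (adjusted p = 0.100), and at least 1.31-fold without primary tumor 3. Leaving out that tumor also narrowed the spread, so that Srpk3 passed the threshold (adjusted p = 0.0215), as it did without primary tumor 5 (adjusted p = 0.0476). In the other 10 cases of 1 array left out it did not pass. The related kinase genes Srpk1 and Srpk2, expressed in many tissues, lay between -0.12 and 0.20 relative to SCC-7 cells (adjusted p 0.609 to 0.973), and were lowest as a pair in primary tumor 3 (8.56, against 8.83 to 9.28 in the other tumors).

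Of 67 other listed muscle genes, 30 had a kept probe. Their median log2 fold change over SCC-7 was 0.42 in recurrent and 0.33 in primary tumors, with 2 and 1 genes called higher and 0 and 1 called lower, and between recurrent and primary tumors 0 were called. The muscle master regulators MyoD and myogenin (Myod1, Myog) and the fast myosin heavy chains Myh1 and Myh4 have probes, and none was kept. Among fast-fibre genes, 5 of 8 were kept. Mylpf, a fast regulatory light chain, had 4.83, 5.91, 4.83, 7.55 and 9.07 in recurrent tumors 1 to 5, against 6.25, 4.77, 8.65, 5.61 and 4.91 in primary tumors 1 to 5, the same 3 tumors being highest. Tnni2, fast troponin I, was instead at 7.88 or more in all tumors and at 9.21 and 9.15 in SCC-7 cells.

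Slow-fibre genes were represented by 2 of 9, Tnnc1 and Tpm3, which were expressed in SCC-7 cells at 7.67 and 11.02. Tnnc1 had log2 fold changes of -1.50 in recurrent and -1.63 in primary tumors (adjusted p = 0.0825 and 0.0629). In primary tumors it was called with no background correction, with an offset of 50 and with the authors' normalized intensities (-1.12, -1.22 and -1.09, adjusted p = 0.0376, 0.0419 and 0.0397). Of 15 Z-disc and scaffold genes 8 were kept, 7 of them highest in primary tumor 3, as was Ttn, the giant protein titin, at 6.67. Of the calcium-handling genes 3 of 10 were kept. Atp2a1, the calcium pump of fast fibres, had 5.91, 8.53, 5.89, 8.49 and 9.04 in recurrent tumors 1 to 5, against 7.51, 5.86, 9.88, 6.17 and 5.00 in primary tumors 1 to 5.

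Of the energy metabolism list, 9 of 11 genes were kept. Fabp3, a fatty acid carrier of muscle and heart, was called higher in recurrent tumors (mean 6.01) than in SCC-7 cells (adjusted p = 0.046), where it was not above background (4.38 and 4.27). Its level was at least 1.26-fold higher, short of 2-fold, and the call was lost under 6 of 7 other processings and in 8 of 12 cases with 1 array left out. Eno3, the muscle enolase, was lower in primary tumors, at a mean of 10.26 against 12.09 in SCC-7 cells (log2 fold change -1.83, standard error 0.51, adjusted p = 0.0301). That call was lost with median scaling, without a filter on dim probes and with either SCC-7 array left out.

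Mef2c, a muscle regulator, was called in both tumor groups. It had 9.08, 8.31, 9.15, 9.33 and 9.02 in recurrent tumors 1 to 5, against 9.09, 8.85, 11.11, 8.87 and 9.23 in primary tumors 1 to 5, and 5.67 and 5.55 in SCC-7 cells. The groups of tumors did not overlap with the cells, which were not above background, and Mef2c was at least 9.85-fold higher in recurrent and at least 13.5-fold higher in primary tumors (adjusted p = 0.00128 and 0.000526). MEF2C is also made by B cells, myeloid cells and endothelium. Without primary tumor 3 the bound for primary tumors was 10.1-fold (adjusted p = 5.23e-06). Chrna1, the muscle acetylcholine receptor subunit, was lowest of the tumors in primary tumor 3, at 4.64, not above background, as Tpm1, Tpm2, Eno3 and Pfkm were also lowest there, at 11.18, 7.88, 9.11 and 8.95. Recurrences 4 and 5 had 10.13 and 10.09. It had higher levels in the recurrent tumor of 5 of 5 pairs (log2 fold change 1.05, standard error 0.43, adjusted p = 0.933), with a mean ratio of 0.53 without pair 3. Over SCC-7 cells, where 1 array was above background, it had 3.39 in recurrent and 2.34 in primary tumors (adjusted p = 0.0631 and 0.173), and without primary tumor 3 both were called, at 3.39 and 3.19 (adjusted p = 0.00558 and 0.0114).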

How the data were processed

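The arrays (Illumina mouse WG-6 v2) held total RNA of 5 recurrent tumors, 5 primary tumors of the same animals and 2 SCC-7 samples. For each probe and array the authors deposited an intensity, the bead mean, as raw values, and a second table of normalized intensity values by a method not given in the sources used here. Its columns correlated at 0.999 or more with the raw arrays and had medians of 68.39 to 70.74. Groups were taken from the sample labels, which also number the pairs. The 12 deposited columns of detection p-values share 1 name and were not used.

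Background was estimated by limma's normexp model on 943 negative controls (offset 16), followed by quantile normalization and log2 (limma 3.58.1, R 4.3.3). Probes were kept when detected on at least 2 arrays, at a one-sided p under 0.01 against the negative controls. Of the probes, 34773 had 1 gene symbol, 18 several and 10344 none, and probes with several were given no gene. No array repeated another (at most 0.0199% identical intensities).

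Recurrent and primary tumors were compared with lmFit and eBayes in a paired design, the animal being a fixed block, and each tumor group with SCC-7 in a fit of 3 groups with 1 estimate of spread. P-values were adjusted by Benjamini-Hochberg over all kept probes. By the study design, same-numbered tumors are of 1 animal. Correlations of deviations from the group means were -0.37, 0.03, 0.34, 0.36 and 0.17 in pairs 1 to 5, across probes. A count of at least 2-fold differences required the brighter array of a pair to be detected. Both fits were first run on simulated data whose changes were known.

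The 10 genes, the 13 other gene lists and the tests were chosen with earlier results of these data known. Genes named were all 10 with every probe, the 2 brightest genes of each list, and the 5 with the most similar profile. Mylpf, Ttn, Fabp3, Myod1, Myog, Myh1, Myh4 and the immune lists were named after their values were seen. Alternatives were other background, scaling and filter settings, the authors' normalized values, the block, and each array or pair left out. A slide effect could not be fitted, as slides are not given. Promoters came from RefSeq (GRCm38.p6). Figures were drawn with matplotlib 3.10.9.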

Additional observations from a re-analysis of the deposited data

Results flagged for a closer look

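For each of the 9 genes, the levels of the 5 recurrent tumors, those of the 5 primary tumors and the ratios of the 5 pairs were searched for a value well away from the rest. Of these 27 sets 1 held such a value, where chance gives about 1 in 20. Actn3 stood at a log2 level of 6.37 in recurrence 5, against 5.04 in the next recurrent tumor. Recurrence 5 was also the highest recurrent tumor for Acta1, Ckm, Myl1, Tnnc2 and Mb.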

How the results depend on the processing

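Limma called 0 of the 9 genes between recurrent and primary tumors under every alternative run, of which the filter of 6 arrays tested 5 (Acta1, Myl1, Tnnt3, Tnnc2 and Srpk3), and without pair 1 it called 3 probes of all (0 to 3 over the pairs left out). Leaving out 1 pair moved the genes' median fold change between -0.67 and 1.14, and reversed Acta1 (-0.69 to 1.90), Ckm (-0.33 to 0.73), Myl1 (-1.05 to 1.96), Tnnc2 (-0.67 to 1.74), Actn3 (-0.29 to 0.35), Mb (-0.30 to 0.98) and Pvalb (-0.69 to 1.19), mostly without pair 5, and for Acta1, Myl1 and Pvalb also without pair 2 or 4, for Ckm without pair 4. Srpk3 stayed negative (-2.08 to -0.92). Pvalb turned to -0.022 without background correction, -0.036 with an offset of 50 and -0.023 with the authors' normalized values. Without the replicate block, Srpk3 minus the median of the others was -2.08 (exact permutation p = 0.0159, which ignores the pairing), and with the filter of 6 arrays this difference was not computed. The block changed no other call of the 9 genes.

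Against SCC-7, probes called with no background correction, an offset of 50 and the authors' normalized values were 1343, 1439 and 1307 in recurrent tumors and 1404, 1492 and 1337 in primary tumors. Those called lower were 465, 537 and 419 in recurrent and 562, 635 and 517 in primary tumors, and 311 and 367 with median scaling. Leaving out 1 array gave 773 to 2777 probes in recurrent tumors (561 to 1601 higher, 212 to 1176 lower) and 775 to 2405 in primary tumors (527 to 1417 higher, 248 to 1155 lower), the fewest with 1 SCC-7 array, which then has no spread of its own. Of the 9 genes, 0 or 1 was called in primary tumors, Srpk3 without primary tumor 3 or 5. In primary tumors Tnnt3 turned to 0.051, 0.061, 0.41 and 0.15 with no background correction, an offset of 50, median scaling and the authors' values, and ranged from -0.31 to 0.36 with arrays left out. Mb ranged from -0.10 to 0.57, Tnni2 from -0.30 to 0.089, Tpm2 from -0.42 to 0.20, Des from -0.63 to 0.10 and Pfkm from -0.47 to 0.15. In recurrent tumors Actn3 ranged from -0.017 to 0.44, Tnni2 from -0.36 to 0.17, Pfkm from -0.13 to 0.21 and Srpk1 from -0.088 to 0.046. With median scaling, Tnni2 and Srpk1 turned to 0.11 and 0.10 in recurrent tumors, and Des and Srpk2 to 0.12 and 0.16 in primary tumors. Where a change is not due to fewer arrays, the cause was not tested. Signal near background limits Actn3, Ckm, Mb and Pvalb most, which were detected on 3, 4, 5 and 5 of 12 arrays, and then Srpk3 and Tnnc2, on 6 each.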
